A study of Mus musculus with 16 samples.

Results

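GFP-positive cells sorted from mouse retinal organoids on day 35 were compared with those sorted on day 18, the last and the first day sampled, in 7 of the 16 libraries of the series. The 7 libraries are those that the labels place at these days. At day 18, 3 libraries came from embryonic (ESC) and 2 from induced pluripotent (iPSC) stem cell cultures, and at day 35 each source had 1. Retinal organoids are three-dimensional cultures in which pluripotent stem cells form layered retinal tissue. Every library carried the Nrlp-GFP transgene, green fluorescent protein under the promoter of the rod factor Nrl, so the cells compared at both days were sorted on the same reporter. The ESC clones came from blastocysts of Nrlp-GFP mice. The iPSC clones were made from embryonic fibroblasts of these mice with doxycycline-inducible lentiviral vectors for Oct3/4, Sox2, Klf4 and c-Myc. Per the labels, the cultures received retinoic acid (500 nM where a dose is given) in a window that ended on day 26, when the medium was replaced by one with N-2 and B-27 supplements. The labels give day 14 as its start and also a retinoic acid medium change on day 10, both before day 18. Day 18 cells were therefore taken with retinoic acid present and day 35 cells after its end, and day of culture and medium cannot be told apart. Whether the replicates stem from separate cultures, and from how many clones, is not in the labels. The p-values therefore reflect the spread among the 16 libraries of the series alone, which may be technical.

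Library totals of the 7 libraries ran from 4190509 to 21785452 estimated counts over the genes held, so that 1 count was worth between 0.0372 and 0.153 CPM (counts scaled to a common library size). The day 18 libraries were not alike. Replicate 1 of ESC and replicate 1 of iPSC, called the low-Nrl pair below, held Nrl at 17.7 and 16 CPM and the proliferation antigen Mki67 at 406 and 462 CPM. In the other 3 day 18 libraries Nrl lay between 136 and 881 CPM and Mki67 between 66.4 and 172 CPM. The Y-linked gene Eif2s3y also split the libraries against their source: it stood at 0.7 CPM in the library labelled ESC day 18 replicate 1, against 51.4 to 114 CPM in the other 3 ESC libraries. For the library labelled iPSC day 18 replicate 2 the value was 72 CPM, against 0.081 and 1.44 CPM in the other 2 iPSC libraries. Across genes, the low-Nrl pair correlated at 0.992, although its libraries are labelled with different sources, against 0.896 to 0.949 among the 3 ESC and 0.923 between the 2 iPSC libraries of day 18. An exchange of labels or cells between libraries was not tested, and every value by source rests on the labels as given. Of the 4 markers given for this comparison, the rod genes Gnat1, Pde6a and Cnga1 rose and the progenitor gene Fgf15 fell. They were chosen with earlier results of these data known and are no independent check. Markers of other cell types were present at both days. The summed level of 12 Müller glia markers was 586 to 1106 CPM at day 18 and 2159.8 and 288 CPM at day 35, in the order ESC, iPSC. For 10 ganglion cell markers it was 65.6 to 357 CPM at day 18 and 144 and 7.57 CPM at day 35. The sum over pigment epithelium markers was 1579 CPM for ESC day 18 replicate 2, 2315 CPM for ESC day 35 and 44.7 to 251 CPM for the other 5 libraries. The cone opsin Opn1mw was listed at 0 in all 7. Summed cone markers were 146 to 824 CPM at day 18 and 212 and 418 CPM at day 35. Of 10 cone markers tested, 5 had a positive and 5 a negative change, and 1 (Pde6c) fell. For horizontal cell markers the sums were 288 to 1277 CPM and 636 and 877 CPM. Of 8 tested, 3 had a positive and 5 a negative change, and 1 (Onecut1) fell. Over all genes tested, 2.99% fell. In sorted bulk cells, fewer cells of a type and less RNA per cell cannot be told apart.

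Rods are the photoreceptors of dim light. Light activates an opsin in stacked membrane discs of the outer segment, the opsin activates the G protein transducin, transducin activates a phosphodiesterase, and the fall in cyclic GMP closes a cation channel. A rod is born from a progenitor that leaves the cell cycle, is directed to the rod fate by Nrl, and only later builds the outer segment, the connecting cilium that feeds it and the ribbon synapse through which it signals to bipolar cells.

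The sequences upstream of 4 genes are shown because these genes changed and their upstream stretches hold the letters of binding sites often discussed for rod genes and for the retinoic acid response. They were chosen for holding those letters. Each run is the 250 bases before the annotated start, from RefSeq on build GRCm38.p6, written 5′ to 3′ on the gene's strand. In the first 3, which rose, capitals mark TAATCC or its reverse complement GGATTA, the core bound by the photoreceptor homeodomain factor CRX. In Cyp26a1, which fell and encodes an enzyme that breaks down retinoic acid, capitals mark TGAACT, the reverse complement of AGTTCA, a half-site of retinoic acid receptors that was chosen after the fall of this gene was seen.
Cngb1 (chr8:95306586-95306835, minus strand): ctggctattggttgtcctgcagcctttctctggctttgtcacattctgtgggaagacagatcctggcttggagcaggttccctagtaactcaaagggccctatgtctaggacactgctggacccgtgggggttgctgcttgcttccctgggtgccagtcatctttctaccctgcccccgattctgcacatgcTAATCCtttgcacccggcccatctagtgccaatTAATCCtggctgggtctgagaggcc
Cnga1 (chr5:72642753-72643002, minus strand): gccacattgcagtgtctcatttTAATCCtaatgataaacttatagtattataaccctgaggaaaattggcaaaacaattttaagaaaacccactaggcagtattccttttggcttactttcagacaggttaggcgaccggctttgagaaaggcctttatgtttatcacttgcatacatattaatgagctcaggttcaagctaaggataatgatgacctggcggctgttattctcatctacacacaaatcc
Gngt1 (chr6:3993758-3994007, plus strand): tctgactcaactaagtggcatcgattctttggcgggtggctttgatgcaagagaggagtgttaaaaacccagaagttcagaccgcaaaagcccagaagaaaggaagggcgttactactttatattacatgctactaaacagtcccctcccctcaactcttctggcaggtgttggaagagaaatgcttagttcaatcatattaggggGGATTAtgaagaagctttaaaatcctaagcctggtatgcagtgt
Cyp26a1 (chr19:37697558-37697807, plus strand): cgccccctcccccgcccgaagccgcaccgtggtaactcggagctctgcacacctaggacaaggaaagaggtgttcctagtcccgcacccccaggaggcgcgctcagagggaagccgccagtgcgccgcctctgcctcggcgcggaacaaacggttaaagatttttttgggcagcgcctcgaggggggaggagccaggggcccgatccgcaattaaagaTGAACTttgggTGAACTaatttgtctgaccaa
Counted from the start, the matches began at -58 and -25 in Cngb1, -228 in Cnga1, -44 in Gngt1, and -32 and -21 in Cyp26a1. Over the 250-base windows of all tested genes in the promoter table, 5.19% of 14305 promoters (11147 of 15202 genes) held TAATCC on either strand. The share was 6.82% of 733 promoters of genes that rose and 3.66% of 410 promoters of genes that fell. For TGCTGA, letters of the site bound by NRL, the shares were 13.2, 14.1 and 10.5%, and for AGTTCA 8.87, 9.69 and 7.56%. Also scanned were GATTA, at 14.1, 17.7 and 9.76%, and CAGCTG, at 12.6, 13.2 and 13.7%. GATTA lies within GGATTA, so its matches include those of TAATCC. None of the other motifs contains another, although neighbouring matches can share bases. AGTTCA also occurs, in lower case, in the Gngt1 stretch. A match describes letters and not a bound site.

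Between day 18 and day 35, 8 of 9 genes from rod transducin to the channel, 9 of 12 of the outer segment, 15 of 37 of the cilium and 10 of 23 of the ribbon synapse rose. On the falling side were 4 of 22 progenitor genes, 5 of 21 of cell birth, 11 of 32 of DNA replication, 7 of 30 of mitosis and 16 of 33 of ribosomal proteins. Without 2 of the day 18 libraries, the low-Nrl pair above, these counts were 4, 0, 3 and 2 rises and 0, 1, 1, 0 and 0 falls. Of 15202 genes tested, 1144 (7.53%) passed, 690 higher (4.54%) and 454 lower (2.99%) at day 35 (limma with trend on log2(CPM + 1), source as covariate, spread pooled over all 16 libraries, Benjamini-Hochberg adjusted p under 0.05). The median log2 change was 1.66 among the genes that rose and -1.53 among those that fell, against 0.05 over all genes tested. Both day 35 libraries lay above all 5 day 18 libraries for 10.9% of genes tested and below all 5 for 10.1%. Among the called genes this held for 656 of the 690 and 452 of the 454, although the test and the separation use the same libraries. Without the low-Nrl pair 147 genes passed, 107 higher and 40 lower, and 144 of these were among the 1144. The count was 295 without iPSC day 35, 773 without ESC day 35, 512, 1808 and 742 without ESC day 18 replicates 1, 2 and 3, and 354 and 1460 without iPSC day 18 replicates 1 and 2. Changes below are on the log2(CPM + 1) scale, and adjusted p is from the same limma fit. The counts of each list below stand against 4.54% of all genes tested for rises and 2.99% for falls. Levels of day 18 are given in the order ESC replicates 1, 2 and 3 and iPSC replicates 1 and 2, and those of day 35 in the order ESC, iPSC. CPM is not corrected for gene length, so levels are compared between libraries and not between genes.

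In the chain from transducin to the channel 8 of 9 genes rose, against 4.54% of all genes tested, none fell, and the median change was 5.55. Gnat1, the alpha subunit of rod transducin, stood at 5.17, 4.29, 1.97, 4.68 and 5.73 CPM at day 18 and 139 and 248 CPM at day 35 (log2 change 5.09, SE 0.50, adjusted p = 5.3e-04). Both day 35 libraries were far above all 5 of day 18, which lay close together whether or not they belonged to the low-Nrl pair. Its partner Gngt1, the gamma subunit, stood at 4.07, 24.5, 32.3, 5.82 and 70.1 CPM at day 18 and 452 and 853 CPM at day 35 (5.04, adjusted p = 0.0086), and here the low-Nrl pair was lowest and iPSC replicate 2 highest at day 18. Gnb1, the beta subunit, which many cells express, started from 254 to 542 CPM and reached 1587 and 2989.5 CPM (2.51, adjusted p = 0.015).

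Pde6a, the alpha catalytic subunit of the phosphodiesterase, stood at 0.21, 1.18, 0, 0 and 1.96 CPM at day 18 and 126 and 226 CPM at day 35 (log2 change 6.76, SE 0.46, adjusted p = 1.5e-05). It was listed at 0 in 2 day 18 libraries and was at most 1.96 CPM in the others. Pde6g, the inhibitory subunit, stood at 0.88, 15.1, 5.27, 0.4 and 26.9 CPM at day 18 and 409 and 933 CPM at day 35 (6.68, adjusted p = 0.0077), again without overlap between the days. The beta subunit Pde6b did not pass, at 1.45, 274, 27.2, 0.92 and 232 CPM at day 18 and 667 and 2002 CPM at day 35 (5.55, adjusted p = 0.061). Its day 18 libraries differed widely among themselves, from the low-Nrl pair to ESC replicate 2 and iPSC replicate 2, and both day 35 libraries stood above all of them.

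Of the cyclic GMP-gated channel, the alpha subunit Cnga1 stood at 0, 5.04, 0.15, 0.048 and 17.3 CPM at day 18 and 186 and 561 CPM at day 35 (6.83, adjusted p = 0.016), and the beta subunit Cngb1 at 0.28, 8.40, 0.94, 0.21 and 95 CPM at day 18 and 233 and 1066 CPM at day 35 (6.58, adjusted p = 0.02). Both were lowest in the low-Nrl pair and highest in iPSC replicate 2 among the day 18 libraries. Slc24a1, the rod exchanger that carries calcium out of the outer segment, rose from 0.7 to 9.05 CPM to 72.1 and 78.6 CPM (4.45, adjusted p = 0.013). Of the 9 genes, 4 rose without the low-Nrl pair (median 5.14), and 2 (without iPSC day 35) to 9 (without ESC day 18 replicate 2) with 1 library left out.

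**Figure D1:**
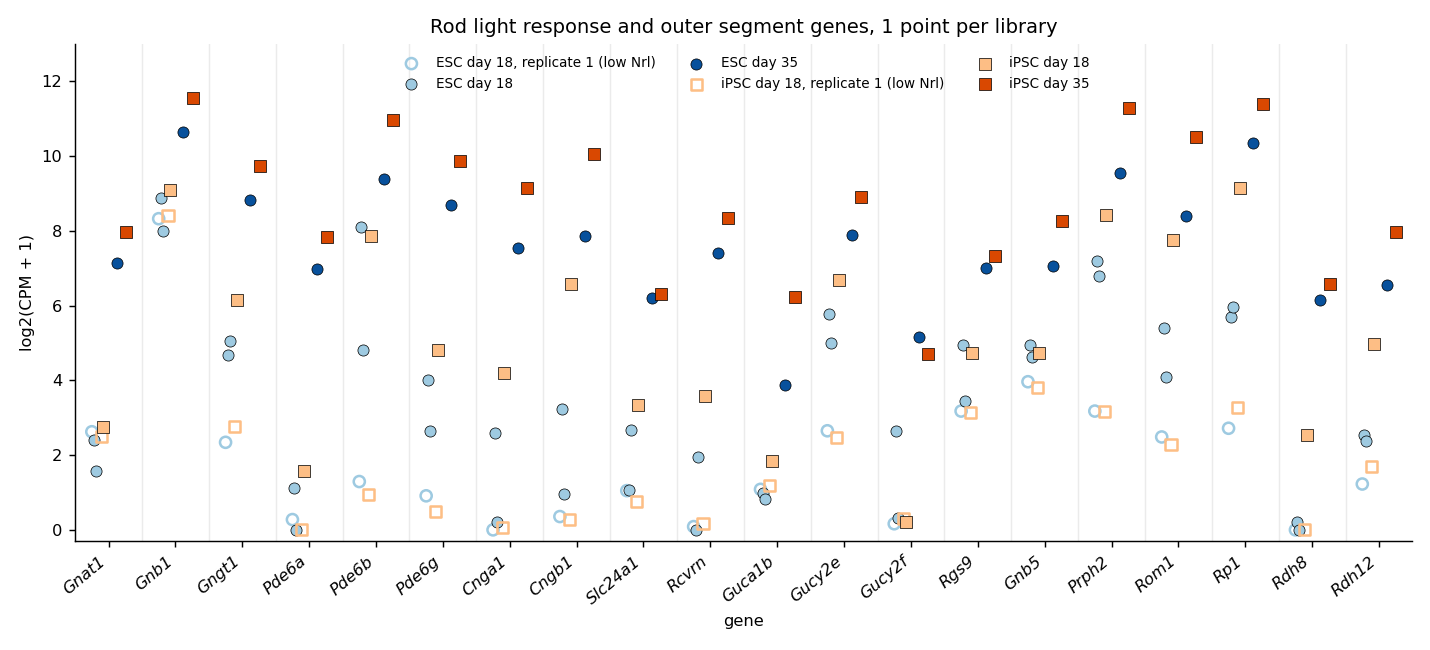
Levels of 20 rod genes as log2(CPM + 1) on the y axis, 1 point per library, circles for ESC and squares for iPSC, light for day 18 and dark for day 35, open symbols for the low-Nrl pair. For Gnat1 and Pde6a the 5 day 18 points lie together, while for Cngb1, Prph2 and Rp1 the open symbols lie far below iPSC day 18 replicate 2, and in each of the 20 genes both day 35 points lie above all day 18 points.

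Genes that shut the light response off and let the rod recover rose in part, 6 of 10 tested, with none lower and a median of 3.57. Rcvrn, recoverin, which restrains the opsin kinase when calcium is high, stood at 0.062, 0, 2.83, 0.12 and 10.9 CPM at day 18 and 168 and 324 CPM at day 35 (log2 change 6.67, SE 1.00, adjusted p = 0.0041). Rgs9 and Gnb5, which together speed transducin's hydrolysis of GTP, went from 7.77 to 30.1 CPM to 127 and 160.0 CPM (3.25, adjusted p = 0.0099) and from 13 to 29.6 CPM to 133 and 307 CPM (3.24, adjusted p = 0.004). The days did not overlap for any of the 3. The guanylate cyclases that remake cyclic GMP also rose: Gucy2e stood at 5.28, 54.2, 30.7, 4.56 and 101 CPM at day 18 and 235 and 478 CPM at day 35 (3.86, adjusted p = 0.032), and Gucy2f at 0.12, 5.27, 0.25, 0.24 and 0.15 CPM at day 18 and 34.7 and 25.1 CPM at day 35 (4.18, adjusted p = 0.0055). Guca1b, a calcium sensor that activates these cyclases, went from 0.76 to 2.58 CPM to 13.6 and 73.4 CPM (3.78, adjusted p = 0.017). The arrestin Sag (4.13, adjusted p = 0.077), the opsin kinase Grk1 (1.57, adjusted p = 0.15), the Rgs9 anchor Rgs9bp (3.23, adjusted p = 0.066) and phosducin Pdc (3.36, adjusted p = 0.086) did not pass. Of the 10 genes, 3 rose without the low-Nrl pair (median 2.61), and 3 (without iPSC day 35) to 10 (without iPSC day 18 replicate 2) with 1 library left out.

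Structural genes of the outer segment rose, 9 of 12 tested, with a median of 3.74. The disc rim proteins Prph2 and Rom1 stood at 8.05, 145, 109, 7.97 and 341 CPM at day 18 and 746 and 2519.9 CPM at day 35 (4.65, adjusted p = 0.042) and at 4.60, 41.4, 15.9, 3.88 and 216 CPM at day 18 and 338 and 1472 CPM at day 35 (5.00, adjusted p = 0.032). In both genes the low-Nrl pair was lowest, iPSC replicate 2 came nearest to day 35, and the days did not overlap. Rp1, a microtubule protein of the outer segment axoneme, stood at 5.58, 50.6, 61, 8.62 and 569.5 CPM at day 18 and 1293 and 2708 CPM at day 35 (5.45, adjusted p = 0.026). Impg1 and Impg2, proteoglycans of the matrix around the outer segments, went from 0.41 to 21.4 CPM to 153 and 264 CPM (5.52) and from 17.7 to 511 CPM to 1019 and 1287 CPM (3.86). Rp1l1 (3.61), Prom1 (2.71), which shapes new discs, and the actin bundler Fscn2 (1.76) rose too. Cdhr1, a cadherin at the disc base, stood at 2.30 and did not pass (adjusted p = 0.085). Of the 12 genes, 0 rose without the low-Nrl pair (median 2.46), and 0 (without iPSC day 35) to 11 (without ESC day 18 replicate 2) with 1 library left out.

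In the retinoid cycle, which returns the bleached chromophore to the opsin, the 2 dehydrogenases that reduce all-trans-retinal in the photoreceptor rose. Rdh8 stood at 0, 0.16, 0, 0 and 4.79 CPM at day 18 and 69.8 and 95.1 CPM at day 35 (log2 change 5.78, SE 0.82, adjusted p = 0.0033), listed at 0 in 3 day 18 libraries. Rdh12 stood at 1.34, 4.78, 4.18, 2.26 and 30.6 CPM at day 18 and 92.9 and 248 CPM at day 35 (4.63, adjusted p = 0.015), highest at day 18 in iPSC replicate 2 and without overlap. The other 8 of 10 tested did not pass, among them the interphotoreceptor carrier Rbp3 (2.83, adjusted p = 0.098) and Rdh11 (0.68, adjusted p = 0.21). Rlbp1 and Lrat, which act in Müller glia or the pigment epithelium, stood at 2.00 and -1.21 with adjusted p of 0.099 and 0.35. Of the 10 genes, 1 rose without the low-Nrl pair (median 0.89), and 2 (without ESC day 18 replicate 1) to 3 (without ESC day 18 replicate 2) with 1 library left out.

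Chaperones and carriers of lipid-modified proteins mostly did not pass, although the 15.4% that rose stand against 4.54% of all genes tested. Aipl1, the chaperone that phosphodiesterase needs to assemble, stood at 3.23, 11.5, 44.9, 4.63 and 54.1 CPM at day 18 and 113 and 429 CPM at day 35 (3.84, adjusted p = 0.026), and Mpp4, a scaffold protein of the photoreceptor terminal, at 7.76, 202, 54.6, 7.72 and 242 CPM at day 18 and 660.4 and 1956 CPM at day 35 (4.59, adjusted p = 0.032). Both days were separate for each, with iPSC replicate 2 highest at day 18. The remaining 11 of 13 tested did not pass, among them the transducin carrier Unc119 (1.98, adjusted p = 0.12), the prenyl-binding Pde6d (0.70, adjusted p = 0.27), the small GTPase Arl3 (0.81, adjusted p = 0.12) and the cyclase regulator Rd3 (2.70, adjusted p = 0.064). Of the 13 genes, 0 rose without the low-Nrl pair (median 0.72), and 0 (without iPSC day 18 replicate 1) to 5 (without iPSC day 18 replicate 2) with 1 library left out.

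The connecting cilium joins the inner to the outer segment, and cargo passes it on intraflagellar transport (IFT) trains with the BBSome as adaptor. Of 37 genes tested, 15 rose, none fell, and the median was 1.02. Rpgrip1, which anchors the transition zone protein RPGR, stood at 47.3, 235, 254, 49.4 and 756 CPM at day 18 and 891 and 3087 CPM at day 35 (3.30, adjusted p = 0.036). Fam161a, a protein of ciliary microtubules, changed by 3.01 (adjusted p = 0.015) and Cc2d2a, of the transition zone, went from 30.6 to 67.6 CPM to 103 and 188 CPM (1.71, adjusted p = 0.017). Wdr17, whose role in rods is little described, stood at 13.3, 8.75, 11, 10.9 and 16.7 CPM at day 18 and 131 and 315 CPM at day 35 (3.93, adjusted p = 5.3e-04), with its 5 day 18 libraries close together. Of 8 BBSome genes on the list 7 rose: Bbs1 (1.37), Bbs2 (1.41), Bbs4 (1.42), Bbs5 (2.54), Bbs7 (2.25), Bbs9 (1.99) and Ttc8 (2.05). Bbs2 stood at 32.6, 46.1, 33.8, 33.9 and 60.7 CPM at day 18 and 72 and 170.5 CPM at day 35 (adjusted p = 0.015). Of the 11 IFT genes none passed in the limma fit, the nearest being Ift57 (1.02, adjusted p = 0.051) and Ift122 (1.03, adjusted p = 0.057). Ift88, a core train subunit, stood at 25.7, 18.4, 19.5, 30.6 and 40.9 CPM at day 18 and 39.3 and 42.8 CPM at day 35 (0.60, adjusted p = 0.095), with iPSC day 18 replicate 2 above ESC day 35, and Ift52 at 32.3, 29.7, 30.1, 35.5 and 43.4 CPM at day 18 and 36.6 and 26.7 CPM at day 35 (-0.11, adjusted p = 0.78). A difference between the 2 groups of genes was not tested. Of the 37 genes, 3 rose without the low-Nrl pair (median 0.90), and 1 (without iPSC day 35) to 19 (without iPSC day 18 replicate 2) with 1 library left out.

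In the ribbon synapse 10 of 23 genes tested rose and none fell, with a median of 1.91. Cplx4, a complexin that clamps vesicle fusion at ribbons, stood at 0.61, 2.05, 1.77, 0.4 and 8.25 CPM at day 18 and 64.6 and 119 CPM at day 35 (log2 change 4.92, SE 0.69, adjusted p = 0.0031). The calcium channel that triggers release rose with its regulator: Cacna1f stood at 1.15, 23.3, 6.43, 1.78 and 20.1 CPM at day 18 and 169.9 and 377 CPM at day 35 (5.03, adjusted p = 0.0064) and Cabp4 at 0.88, 0.32, 2.97, 0.49 and 3.71 CPM at day 18 and 17.7 and 33.2 CPM at day 35 (3.41, adjusted p = 0.01). For all 3 the days did not overlap. Lrit1, a synaptic leucine-rich repeat protein, went from 2.81 to 92.3 CPM to 275 and 589 CPM (4.55, adjusted p = 0.026), and the fusion protein Stx3 from 30.4 to 312 CPM to 477 and 947 CPM (2.98, adjusted p = 0.028). Elfn1, through which rods contact bipolar cells, changed by 2.58, adjusted p = 0.028. The scaffold Dlg4 (1.73) and the active zone protein Pclo (1.45) rose as well, as did Mpp4, given above. Among genes that did not pass, Ctbp2, whose RIBEYE isoform builds the ribbon, stood at 88.9, 86.4, 147, 95.4 and 206 CPM at day 18 and 149 and 261 CPM at day 35 (0.72, adjusted p = 0.16), and Bsn at 53.3, 37.4, 41.7, 50.8 and 49.6 CPM at day 18 and 48.4 and 57.8 CPM at day 35 (0.19, adjusted p = 0.58), in both cases with overlapping days. Of the 23 genes, 2 rose without the low-Nrl pair (median 1.17), and 1 (without iPSC day 35) to 19 (without iPSC day 18 replicate 2) with 1 library left out.

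Among 14 channels and pumps of the inner segment, 5 rose, with a median of 2.01. Kcnv2, a potassium channel subunit that shapes the rod's voltage response, stood at 4.07, 7.72, 23.1, 4.24 and 71 CPM at day 18 and 223 and 572 CPM at day 35 (4.70, adjusted p = 0.0093). It was highest at day 18 in iPSC replicate 2, and the days did not overlap. Kcnj14 changed from 0.52 to 8.04 CPM to 19.9 and 45.2 CPM (3.49, adjusted p = 0.044), and Slc24a1, given above, is also on this list. The chloride channel Ano2 did not pass (3.67, adjusted p = 0.07). Of the 14 genes, 1 rose without the low-Nrl pair (median 1.18), and 0 (without iPSC day 35) to 8 (without iPSC day 18 replicate 2) with 1 library left out.

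Transcription regulators of rod fate rose in 5 of 23 cases and the median was 1.15. Esrrb, an orphan nuclear receptor active in rods and in pluripotent cells, stood at 0.64, 1.13, 1, 0.78 and 0.48 CPM at day 18 and 21.9 and 47.1 CPM at day 35 (log2 change 4.16, SE 0.45, adjusted p = 8.3e-04). Of the 5 day 18 libraries none exceeded 1.13 CPM. Ankrd33, a cofactor that dampens CRX, stood at 0.37, 2.79, 7.67, 0.37 and 21.4 CPM at day 18 and 64.8 and 193 CPM at day 35 (4.70, adjusted p = 0.019), and the zinc finger factor Casz1 at 52.3, 84.4, 102, 42.8 and 167 CPM at day 18 and 191 and 465 CPM at day 35 (1.87, adjusted p = 0.041). The circadian repressors Nr1d1 and Nr1d2 changed by 1.15 and 1.21. The factors that set the fate did not pass: Nrl stood at 17.7, 203, 136, 16 and 881 CPM at day 18 and 556 and 1860.3 CPM at day 35 (3.38, adjusted p = 0.11), and Crx at 192, 742, 871, 198 and 1728 CPM at day 18 and 874 and 2092 CPM at day 35 (1.32, adjusted p = 0.29). For both, iPSC day 18 replicate 2 was above ESC day 35. Nr2e3 (3.37, adjusted p = 0.13), the partner of Nrl that represses cone genes, Neurod1 (0.51, adjusted p = 0.67) and Otx2 (-0.55, adjusted p = 0.56) did not pass either. Of the 23 genes, 1 rose without the low-Nrl pair (median 0.83), and 1 (without iPSC day 35) to 11 (without iPSC day 18 replicate 2) with 1 library left out.

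Of 19 splicing factors of neurons and photoreceptors 2 rose, Mbnl1 (26.1 to 41.8 CPM at day 18, 73.3 and 186 CPM at day 35; 1.72, adjusted p = 0.022) and Mbnl2 (54.4 to 115 CPM and 159 and 191 CPM; 1.17, adjusted p = 0.031). Msi1, a splicing regulator of photoreceptors, stood at 322, 167, 413, 286 and 639 CPM at day 18 and 192 and 466 CPM at day 35 (-0.18, adjusted p = 0.83). The neuronal regulators Elavl4 and Nova2 stood at -2.83 and -1.88 (adjusted p = 0.15 and 0.34) and did not pass. The median was -0.64, and 10.5% of the list rose, against 4.54% of all genes tested. Of the 19 genes, 0 rose without the low-Nrl pair (median -0.30), and 0 (without iPSC day 18 replicate 1) to 2 (without ESC day 18 replicate 2) with 1 library left out.

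In energy supply, 3 of 24 genes of glycolysis and the energy shuttle rose, with a median of 0.30. They were the hexokinase Hk1, at 46.6, 144, 63, 45 and 127 CPM at day 18 and 435 and 641 CPM at day 35 (2.78, adjusted p = 0.013), the mitochondrial creatine kinase Ckmt1, at 7.39, 5.61, 7.18, 7.41 and 10.1 CPM at day 18 and 57.1 and 124 CPM at day 35 (3.31, adjusted p = 8.3e-04), and Nxnl1, a rod-derived survival factor for cones, at 0.87, 6.22, 2.71, 0.53 and 12.6 CPM at day 18 and 64.4 and 127 CPM at day 35 (4.49, adjusted p = 0.01). The days did not overlap for any of the 3. The remaining 21 did not pass, among them Gapdh (0.38, adjusted p = 0.6), Ldha (0.12, adjusted p = 0.92) and the glucose transporter Slc2a1 (-0.80, adjusted p = 0.33). Of 15 genes of fatty acid supply, which rods need for discs rich in docosahexaenoic acid, 3 rose: Acsl6 (1.47, adjusted p = 0.047), which activates that fatty acid, Adipor1 (1.16, adjusted p = 0.035), and the mitochondrial oxidation enzyme Hadha (0.99, adjusted p = 0.037). Elovl4, which makes very long chains, did not pass (1.84, adjusted p = 0.057). The shares that rose were 12.5% of the glycolysis list and 20% of the fatty acid list, against 4.54% of all genes tested. Of the glycolysis genes, 2 rose without the low-Nrl pair (median 0.02), and 1 (without iPSC day 35) to 4 (without iPSC day 18 replicate 2) with 1 library left out. Of the fatty acid genes, 0 rose without the low-Nrl pair (median 0.65), and 0 (without ESC day 18 replicate 1) to 7 (without iPSC day 18 replicate 2) with 1 library left out.

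**Figure D2:**
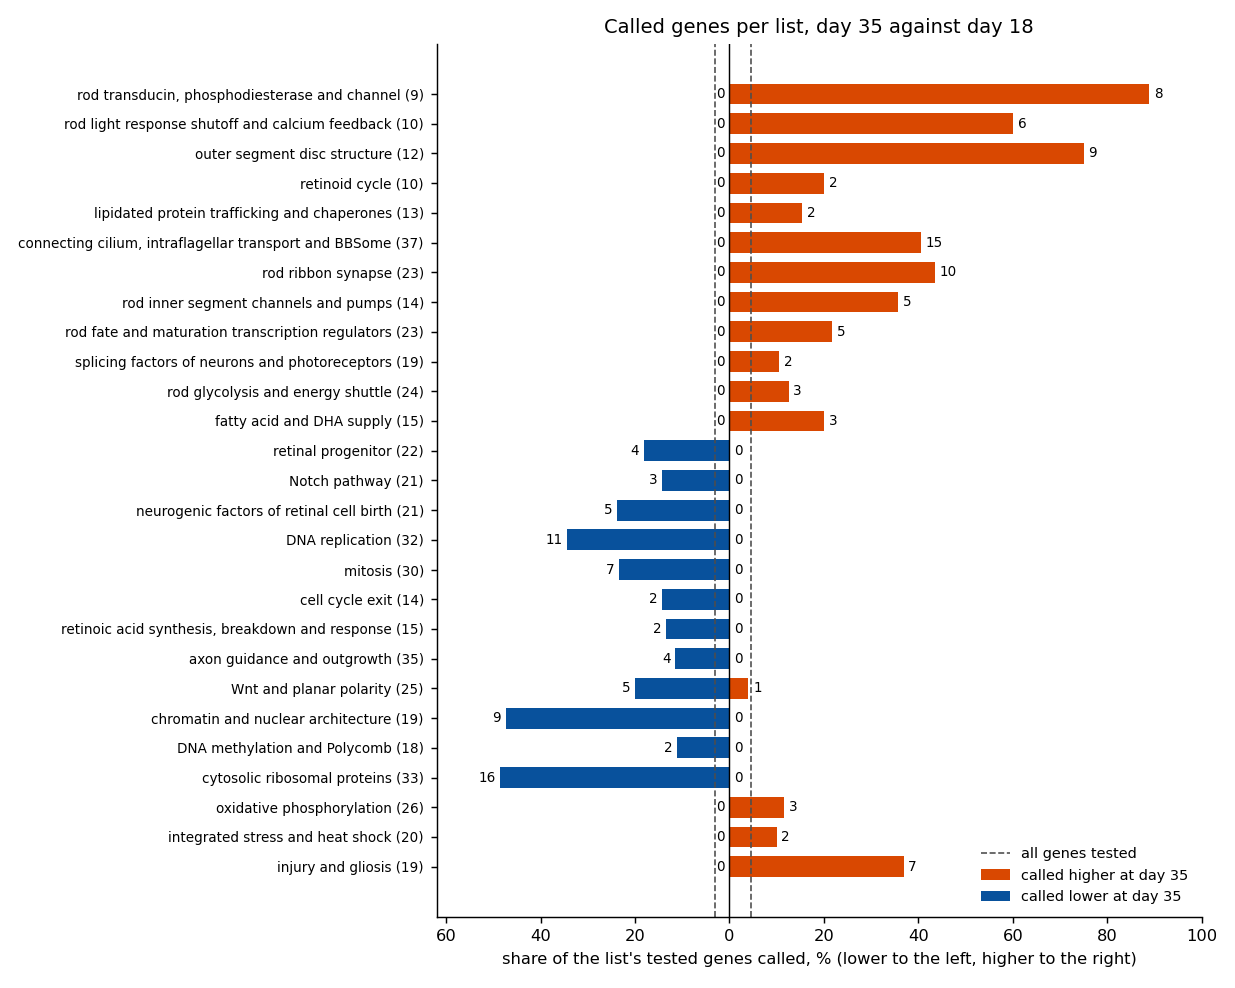
Share of each of 27 gene lists called higher (bars to the right) or lower (to the left) at day 35, in percent of the list's tested genes, whose number stands in parentheses. Numbers at the bars are counts of called genes, and dashed lines are the shares over all 15202 genes tested, 4.54% higher and 2.99% lower. The first 12 lists have bars to the right only, led by 8 of 9 transducin, phosphodiesterase and channel genes, and the progenitor, cell cycle and ribosomal lists have bars to the left only.

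On the falling side, the medians of progenitor and cell birth lists were negative, while few members passed. All 22 progenitor genes had a negative change, with a median of -2.07, and 4 fell (2.99% of all genes tested fell). Fgf15, a growth factor of retinal progenitors, stood at 801, 28.6, 387, 868 and 63.8 CPM at day 18 and 3.10 and 1.17 CPM at day 35 (log2 change -6.16, SE 1.56, adjusted p = 0.033). The low-Nrl pair was highest and ESC replicate 2 lowest at day 18, and both day 35 libraries lay below all 5. Sfrp2, a secreted Wnt modulator, stood at 158, 8.80, 47.7, 144 and 48.5 CPM at day 18 and 3.00 and 0.92 CPM at day 35 (-4.30, adjusted p = 0.024). Cdk4 (-1.88, adjusted p = 0.009), the kinase partner of D-type cyclins, and Id1 (-2.02, adjusted p = 0.047), which blocks neurogenic factors, fell as well. Lhx2 (-2.94, adjusted p = 0.053), Ccnd1 (-3.52, adjusted p = 0.12) and Pax6 (-2.57, adjusted p = 0.14) did not pass. Of the 22 genes, 0 fell without the low-Nrl pair (median -1.60), and 0 (without iPSC day 35) to 13 (without ESC day 18 replicate 2) with 1 library left out.

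Notch signalling holds neighbouring progenitors back from differentiation, and its ligands are made by newly born neurons. Of 21 genes 3 fell (14.3%, against 2.99% of all genes tested), with a median of -1.43. The ligands Dll1 and Dll3 stood at 109, 65.7, 105, 113 and 41.7 CPM at day 18 and 13.1 and 6.37 CPM at day 35 (-2.94, adjusted p = 0.031) and at 33.7, 13.9, 34.1, 35.4 and 23.6 CPM at day 18 and 3.11 and 1.26 CPM at day 35 (-3.16, adjusted p = 0.024). Hes6, which counters the Notch effectors, stood at 208, 64.3, 199, 179 and 147 CPM at day 18 and 27 and 36 CPM at day 35 (-2.18, adjusted p = 0.039). Both days were separate for all 3 genes. The effectors Hes1 (-2.25, adjusted p = 0.11) and Hes5 (-2.91, adjusted p = 0.11) and the receptor Notch1 (-0.58, adjusted p = 0.69) did not pass. Of the 21 genes, 0 fell without the low-Nrl pair (median -1.14), and 0 (without iPSC day 18 replicate 1) to 10 (without ESC day 18 replicate 2) with 1 library left out.

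Factors of retinal cell birth fell in 5 of 21 cases, with a median of -1.76. Foxn4, a factor of horizontal and amacrine cell birth, stood at 116, 4.80, 82.1, 101 and 44.6 CPM at day 18 and 1.28 and 0.27 CPM at day 35 (-4.78, adjusted p = 0.036). Its day 18 libraries ran from ESC replicate 2, the lowest, to ESC replicate 1, and both day 35 libraries lay below all of them. Onecut1, a factor of horizontal cells and of early cone and ganglion cell birth, stood at 38.6, 7.58, 39, 39.7 and 25 CPM at day 18 and 0.95 and 2.75 CPM at day 35 (log2 change -3.35, SE 0.54, adjusted p = 0.0055). Sox11, active in young neurons, went from 141 to 657 CPM to 38.4 and 24.9 CPM (-3.23, adjusted p = 0.025), and Gadd45g changed by -1.43, adjusted p = 0.049. Outside the list, the bHLH genes Neurog1 and Nhlh1 fell, Neurog1 from 8.50 to 23.1 CPM to 0.17 and 0 CPM (-3.48, adjusted p = 0.0069) and Nhlh1 from 9.73 to 25.6 CPM to 2.47 and 1.92 CPM (-2.55, adjusted p = 0.0057). Neurog1 was listed at 0 in iPSC day 35. Neurog2 (-3.35, adjusted p = 0.067) and Atoh7 (-2.56, adjusted p = 0.12), the factor of ganglion cell birth, did not pass. Of the 21 genes, 1 fell without the low-Nrl pair (median -1.27), and 1 (without ESC day 18 replicate 1) to 11 (without ESC day 18 replicate 2) with 1 library left out.

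The cell cycle lists were negative throughout: each of 32 DNA replication genes and each of 30 mitosis genes had a negative change, with medians of -1.47 and -2.59. The test was passed by 11 and 7 of them. Mki67 stood at 406, 66.4, 146, 462 and 172 CPM at day 18 and 35.3 and 1.20 CPM at day 35 (log2 change -4.41, SE 1.19, adjusted p = 0.041), highest in the low-Nrl pair and lowest in iPSC day 35. E2f1, a driver of entry into DNA synthesis, stood at 116, 20.2, 57.5, 99.4 and 56 CPM at day 18 and 6.81 and 2.11 CPM at day 35 (-3.57, adjusted p = 0.028), and Uhrf1, which keeps DNA methylation through replication, at 117, 16, 38.1, 103 and 32.5 CPM at day 18 and 7.79 and 1.27 CPM at day 35 (-3.42, adjusted p = 0.024). In each of these genes the low-Nrl pair was highest and both day 35 libraries were below day 18. The replicative helicase genes Mcm3 (-3.18), Mcm6 (-2.77), Mcm2 (-2.45) and Mcm7 (-1.46) fell, while Mcm4 (-1.65, adjusted p = 0.077) and Mcm5 (-2.87, adjusted p = 0.056) did not pass. Among mitosis genes Ccnb1 (-3.51), Cdk1 (-3.25), Ccnb2 (-2.83) and the condensin subunits Ncapg (-3.27) and Ncaph (-3.05) fell. Top2a missed the threshold (-2.55, adjusted p = 0.053). Of the 32 replication genes, 1 fell without the low-Nrl pair (median -1.0), and 1 (without iPSC day 18 replicate 1) to 22 (without ESC day 18 replicate 2) with 1 library left out. Of the 30 mitosis genes, 0 fell without the low-Nrl pair (median -1.96), and 0 (without ESC day 18 replicate 1) to 27 (without ESC day 18 replicate 2) with 1 library left out.

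Of 14 genes of cell cycle exit 2 fell (14.3%, against 2.99% of all genes tested), with a median of -0.20. Cdkn1c, the p57 inhibitor of cyclin-dependent kinases, stood at 80.3, 107, 191, 72.2 and 34.7 CPM at day 18 and 20.9 and 18.3 CPM at day 35 (-1.98, adjusted p = 0.014). Rbl1, a pocket protein related to the retinoblastoma protein, changed by -1.63, adjusted p = 0.035. Cdkn1b (-0.14, adjusted p = 0.73), the p27 inhibitor, and Rb1 (0.09, adjusted p = 0.87) did not pass. Of the 14 genes, 0 fell without the low-Nrl pair (median -0.28), and 1 (without ESC day 18 replicate 1) to 2 (without ESC day 18 replicate 2) with 1 library left out.

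The 2 enzymes Cyp26a1 and Cyp26b1, which break down retinoic acid, fell, the called members among 15 genes of its synthesis, breakdown and response. Cyp26a1, whose upstream sequence is given above, stood at 63.1, 56.7, 25.1, 68.2 and 14.3 CPM at day 18 and 2.41 and 0.37 CPM at day 35 (log2 change -4.14, SE 0.81, adjusted p = 0.013). Cyp26b1 stood at 265, 87.1, 196, 245 and 174 CPM at day 18 and 5.69 and 2.53 CPM at day 35 (log2 change -5.10, SE 0.83, adjusted p = 0.0055). Both were lower in each day 35 library than in any of day 18. Falls made up 13.3% of the 15, against 2.99% of all genes tested, and the median of the 15 was -1.59. The binding protein Crabp2 (-3.46, adjusted p = 0.055), the receptor Rarb (-1.59, adjusted p = 0.12) and the synthesis enzyme Aldh1a1 (-2.13, adjusted p = 0.48) did not pass. Of the 15 genes, 1 fell without the low-Nrl pair (median -0.89), and 1 (without iPSC day 35) to 4 (without ESC day 18 replicate 2) with 1 library left out.

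Among 35 genes of axon guidance and outgrowth 4 fell (11.4%, against 2.99% of all genes tested), with a median of -1.47. Islr2, a membrane protein of growing axons, stood at 227, 191, 681, 166 and 244 CPM at day 18 and 23.6 and 2.30 CPM at day 35 (log2 change -4.73, SE 0.66, adjusted p = 0.0031), and the neuronal tubulin Tubb3 at 342, 135, 402, 265 and 106 CPM at day 18 and 55.4 and 15.6 CPM at day 35 (-2.77, adjusted p = 0.044). The netrin receptor Dcc (-2.13, adjusted p = 0.042) and the ephrin Efnb1 (-1.95, adjusted p = 0.046) fell too. In both, as in Islr2 and Tubb3, iPSC day 35 was lower than ESC day 35. Gap43 (-2.29, adjusted p = 0.41), Dcx (-3.02, adjusted p = 0.19) and Robo2 (-2.35, adjusted p = 0.074) did not pass. Summed ganglion cell markers were 65.6 to 357 CPM at day 18 and 144 and 7.57 CPM at day 35, and their part in these values was not tested. Of the 35 genes, 1 fell without the low-Nrl pair (median -0.85), and 1 (without ESC day 18 replicate 1) to 5 (without ESC day 18 replicate 2) with 1 library left out.

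In Wnt signalling and planar polarity 5 of 25 genes fell and 1 rose. The receptors Fzd2 (-2.70, adjusted p = 0.018) and Fzd7 (-2.27, adjusted p = 0.043), Sfrp2, and the planar polarity genes Vangl2 and Ptk7 (-1.69, adjusted p = 0.048) fell. Vangl2 stood at 74.8, 61.6, 51.9, 77.1 and 37.6 CPM at day 18 and 22.8 and 8.54 CPM at day 35 (-1.94, adjusted p = 0.01). Prickle1, another planar polarity gene, went the other way, from 3.02 to 18.3 CPM to 23.2 and 51.8 CPM (2.16, adjusted p = 0.04). The median of the list was -1.32. Of the 25 genes, 0 fell without the low-Nrl pair (median -0.99), and 0 (without iPSC day 35) to 7 (without ESC day 18 replicate 2) with 1 library left out. For Prickle1 the adjusted p was 0.14 without that pair and at most 0.29 with 1 library left out.

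Rods of nocturnal mammals rebuild their nuclei while they mature, and 9 of 19 genes of chromatin and nuclear architecture fell, with a median of -0.96. The DNA-binding high mobility group proteins fell together: Hmgb2 stood at 367, 105, 195, 409 and 198 CPM at day 18 and 42.6 and 40.8 CPM at day 35 (-2.42, adjusted p = 0.015), and Hmgb3 (-1.77), Hmgb1 (-1.20) and Hmga1 (-1.99) fell as well. Lmnb1, of the nuclear lamina, stood at 222, 79.8, 142, 231 and 157 CPM at day 18 and 51.2 and 76.5 CPM at day 35 (-1.32, adjusted p = 0.027). Satb1 (-0.96), the linker histone H1f0 (-1.39) and heterochromatin protein Cbx5 (-1.12) were also among the 9. Both days were separate for Hmgb2 and Lmnb1. The lamin B receptor Lbr (-0.46, adjusted p = 0.43) and Lmna (0.25, adjusted p = 0.76), which tether heterochromatin to the nuclear edge, did not pass. Of 18 genes of DNA methylation and Polycomb, Uhrf1 and the histone methyltransferase Ezh2 (-1.34, adjusted p = 0.03) fell, and the median was 0.06. These falls are 11.1% of that list, against 2.99% of all genes tested. Of the 19 chromatin genes, 0 fell without the low-Nrl pair (median -0.87), and 0 (without iPSC day 35) to 11 (without ESC day 18 replicate 2) with 1 library left out. Of the 18 methylation and Polycomb genes, 0 fell without the low-Nrl pair (median -0.01), and 0 (without iPSC day 18 replicate 1) to 5 (without ESC day 18 replicate 2) with 1 library left out.

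Genes of cytosolic ribosomal proteins fell in 16 of 33 cases, with a median of -1.05 and 32 of 33 changes negative. For 30 of the 33 both day 35 libraries were below all 5 of day 18, against 10.1% of all genes tested. Rplp0, of the ribosomal stalk, changed by -1.79, adjusted p = 0.024, and Rps19 by -1.46, adjusted p = 0.019. Rpl3 (-1.53) and Rpl32 (-1.44) fell as well. Rpl10a, with the 1 positive change, stood at 0.03 (adjusted p = 0.98). The summed level of the list was 11355, 8778, 15687, 11031 and 9049.6 CPM at day 18 and 5257 and 5174 CPM at day 35. It was highest in ESC day 18 replicate 3 and alike in both day 35 libraries. CPM are scaled within each library, and whether large rises of other genes lowered these values was not tested. With TMM factors in place of the authors' scaling, 709 genes rose and 536 fell, among them 17 of the 33. Of the 33 genes, 0 fell without the low-Nrl pair (median -0.98), and 1 (without iPSC day 35) to 24 (without ESC day 18 replicate 2) with 1 library left out.

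**Figure D3:**
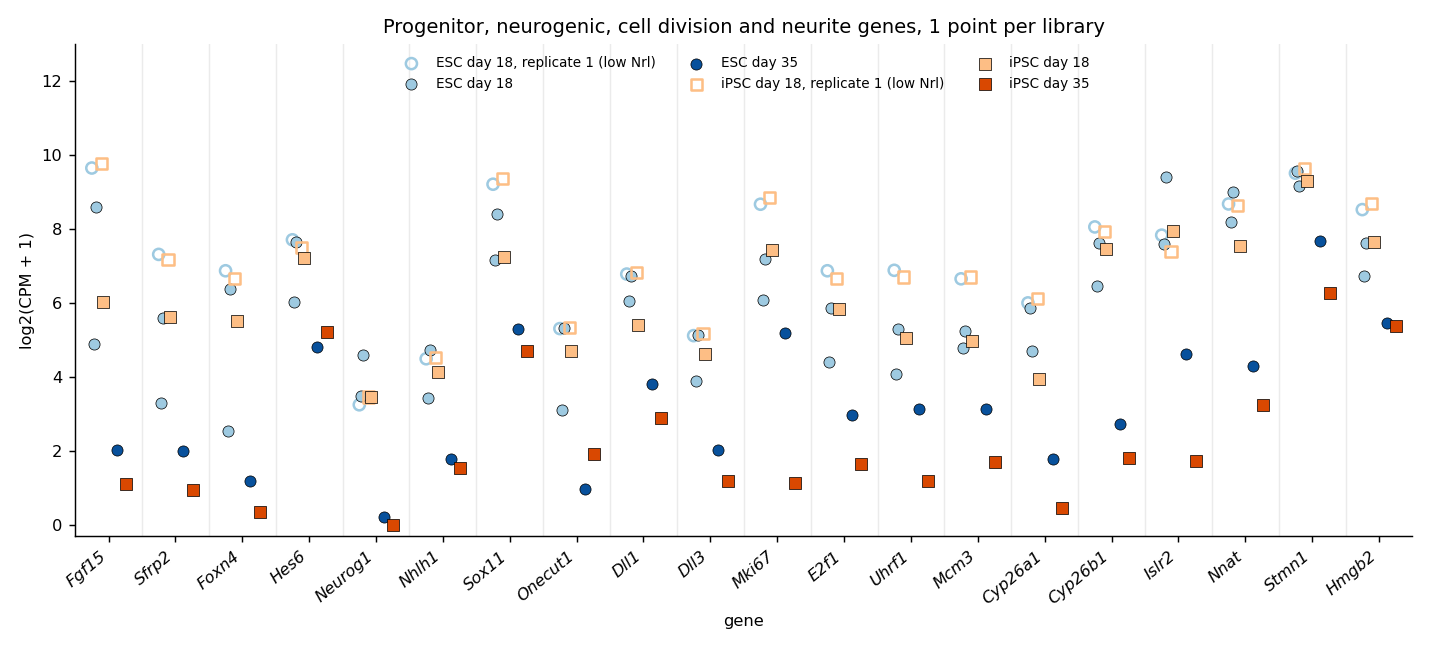
Levels of 20 genes of progenitors, cell birth, cell division, retinoic acid breakdown and neurites as log2(CPM + 1), drawn as in the plot of rod genes. Both day 35 points lie below all 5 day 18 points in each gene, and the open symbols of the low-Nrl pair are highest for Fgf15, Mki67, E2f1, Uhrf1 and Mcm3 but not for Neurog1 or Islr2.

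On the lists of oxidative phosphorylation, stress and injury the genes that passed rose. The shares of these lists that rose were 11.5, 10 and 36.8%, against 4.54% of all genes tested. Of 26 genes of oxidative phosphorylation 3 rose, with a median of 0.42. Among them were Ndufa4 (1.07, adjusted p = 0.045) and Ppargc1b, a coactivator of mitochondrial genes, which stood at 0.78, 1.92, 2.41, 0.95 and 7.26 CPM at day 18 and 16.8 and 61.3 CPM at day 35 (3.39, adjusted p = 0.02). The days did not overlap for Ppargc1b. The stress factors Atf3 (1.74, adjusted p = 0.018) and Atf4 (1.01, adjusted p = 0.048) rose, as 2 of 20 genes of that list, and Ddit3 (1.04, adjusted p = 0.069) and Hspa5 (0.17, adjusted p = 0.66) did not pass. For 2 of the 20 both day 35 libraries lay above all 5 of day 18, against 10.9% of all genes tested. Of 19 injury and gliosis genes 7 rose. Stat3, which carries cytokine signals, stood at 46.1, 71.7, 40.6, 44.5 and 67.4 CPM at day 18 and 152 and 192 CPM at day 35 (log2 change 1.66, SE 0.23, adjusted p = 0.0031). Fgf2, a survival factor of stressed photoreceptors, stood at 2.48, 3.48, 1.96, 3.01 and 6.25 CPM at day 18 and 9.71 and 31.1 CPM at day 35 (2.09, adjusted p = 0.029), and Edn2, an endothelin induced in damaged photoreceptors, at 0, 0, 0, 0 and 1.26 CPM at day 18 and 1.68 and 9.35 CPM at day 35 (2.11, adjusted p = 0.013). Edn2 was listed at 0 in 4 day 18 libraries and was higher in iPSC than in ESC at day 35. Cebpd changed by 2.14, adjusted p = 0.037 and the acute phase gene Lcn2 by 1.79, adjusted p = 0.0031. Serpina3n, which reactive glia express, was high in ESC day 35 alone, at 0.25, 0.79, 0, 0.16 and 0.23 CPM at day 18 and 74.8 and 1.37 CPM at day 35 (3.47, adjusted p = 0.028). Gfap (3.88, adjusted p = 0.068) did not pass. ESC day 35 is also the library with the highest summed Müller glia markers, and their part in these values was not tested. Of the stress genes, 0 rose without the low-Nrl pair (median 0.34), and 0 (without iPSC day 35) to 3 (without ESC day 18 replicate 3) with 1 library left out. Of the oxidative phosphorylation genes, 0 rose without the low-Nrl pair (median 0.31), and 0 (without iPSC day 35) to 3 (without ESC day 18 replicate 2) with 1 library left out. Of the injury genes, 2 rose without the low-Nrl pair (median 0.57), and 3 (without ESC day 18 replicate 1) to 8 (without ESC day 18 replicate 2) with 1 library left out.

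The called genes with the largest read share in the 7 libraries give the change in bulk. Among those that rose were Son, a splicing cofactor of nuclear speckles, at 665, 912, 544, 753 and 1350.4 CPM at day 18 and 1549 and 3168 CPM at day 35 (1.42, adjusted p = 0.029), with Gnb1, Rpgrip1, Rp1 and Prph2 described above. Among those that fell were the chaperone Hsp90ab1 (1161 to 1393 CPM at day 18, 675 and 413 CPM at day 35; -1.25), the tubulin Tubb5 (635 to 1177 CPM and 271 and 236 CPM; -1.78), and Stmn1, a microtubule-destabilizing protein of dividing and young neural cells, at 727, 763, 576, 788 and 633 CPM at day 18 and 205 and 76.7 CPM at day 35 (-2.42, adjusted p = 0.0086). Tpt1 (-1.18), Ptma (-1.39) and Rps4x (-1.22) fell as well. The days did not overlap in any of these genes. Of further genes with large changes, the calcium channel subunit Cacnb2 went from 0.75 to 15.3 CPM to 104 and 157 CPM (4.71, adjusted p = 0.018). The cone phosphodiesterase gene Pde6c stood at 17, 49.3, 107, 21.4 and 90.1 CPM at day 18 and 3.09 and 1.88 CPM at day 35 (-3.71, adjusted p = 0.0095), and the imprinted gene Nnat at 408, 289.6, 515, 395 and 184 CPM at day 18 and 18.6 and 8.40 CPM at day 35 (-4.63, adjusted p = 0.0031). Pde6c was lowest at day 18 in the low-Nrl pair, unlike Fgf15. Igf2bp1, an RNA-binding protein of embryonic cells, went from 31 to 84.3 CPM to 5.26 and 2.92 CPM (-3.42, adjusted p = 0.0031), and Trp53i11, Pbk and Cdca7 changed by -3.46, -3.44 and -3.29.

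Because the counts of called genes depended on single libraries, the genes that passed under every omission were set apart. In each of the 7 fits that left out 1 library, 73 of the 1144 genes (6.38%) passed, 51 higher and 22 lower, and all 73 also passed with any of the 16 libraries left out and without the low-Nrl pair. These fits share most libraries, so this describes the dependence on single libraries and is no replication. The genes of the light response among the 73 were Gnat1, Pde6a, Rcvrn, Gucy2f and Gnb5, with Rdh8, Cplx4, Esrrb, Ckmt1 and Wdr17 from the other rod lists. Others that rose were Tub, a tubby family protein, at 69.2, 52.9, 70.2, 66.3 and 109 CPM at day 18 and 354 and 633 CPM at day 35 (2.68, adjusted p = 0.0022), Ahr, the aryl hydrocarbon receptor, at 6.13, 3.50, 3.39, 6.47 and 5.42 CPM at day 18 and 56 and 84.2 CPM at day 35 (3.53, adjusted p = 9.6e-04), and the sulfate transporter Slc26a2, at 16.9, 16.1, 8.33, 18.7 and 18.5 CPM at day 18 and 105 and 128 CPM at day 35 (2.81, adjusted p = 0.0011). In these genes the 5 day 18 libraries lay close together. Sncb (2.85), Stom (2.78), the endophilin Sh3gl2 (1.96), Lhfpl3 (3.52), Zrsr1 (2.14) and the oocyte growth factor gene Bmp15 (3.20) were also among them. The 22 that fell included Cyp26b1, Islr2, Nnat, Igf2bp1, Neurog1, Nhlh1 and Onecut1. Idh2, a mitochondrial dehydrogenase, stood at 113, 117, 128, 105 and 77.3 CPM at day 18 and 52 and 29.1 CPM at day 35 (-1.38, adjusted p = 0.0042), and Tmsb10, an actin-binding thymosin, at 324, 334, 517, 286 and 309 CPM at day 18 and 119 and 68.2 CPM at day 35 (-1.87, adjusted p = 0.0051). The genes of this paragraph outside the lists and the rule for named genes were chosen after their values were seen.

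Day 28 libraries, 1 of each source, give levels a week before day 35. Among the 690 genes that rose, the median difference from the day 18 mean was 1.18 on the log2(CPM + 1) scale at day 28 and 1.70 at day 35, and among the 454 that fell it was -0.91 and -1.55. Both use the same day 18 libraries, and the genes were called on day 35. No gene passed between day 35 and day 28 (limma, smallest adjusted p = 0.302, 707 genes at an unadjusted p under 0.05), so the orders below are levels and not tested changes. Rdh8 stood at 57.6 and 96.5 CPM at day 28 and 69.8 and 95.1 CPM at day 35, and Rcvrn at 58.3 and 206 CPM and 168 and 324 CPM. Rom1 stood at 534 and 1156 CPM and 338 and 1472 CPM. For Rdh8 and Rom1 the day 28 libraries were near or above those of day 35, while Rcvrn in ESC was well below. Gnat1 differed between sources at day 28, at 12.2 and 104 CPM. On the log2(CPM + 1) scale this is nearer to day 18 in ESC and nearer to day 35 in iPSC. Esrrb stood at 1.42 and 11.7 CPM at day 28, close to the day 18 maximum of 1.13 CPM in ESC and well above it in iPSC. Stat3, at 54.9 and 60.8 CPM, Bcl6, at 4.68 and 2.61 CPM (1.41 to 3.40 CPM at day 18, 14.3 and 18 CPM at day 35), and Lad1, at 0.81 and 0.71 CPM (0.1 to 2.74 CPM at day 18, 12.1 and 14 CPM at day 35), were nearer to day 18 than to day 35 in both sources. Onecut1, at 18 and 19.4 CPM, was in both sources within the range of the 5 day 18 libraries, whereas Cyp26a1, at 2.75 and 0.22 CPM, was already below it. The genes named in this paragraph were chosen after their values were seen, several for day 28 levels far from day 35, and do not stand for the called genes as a whole.

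**Figure D4:**
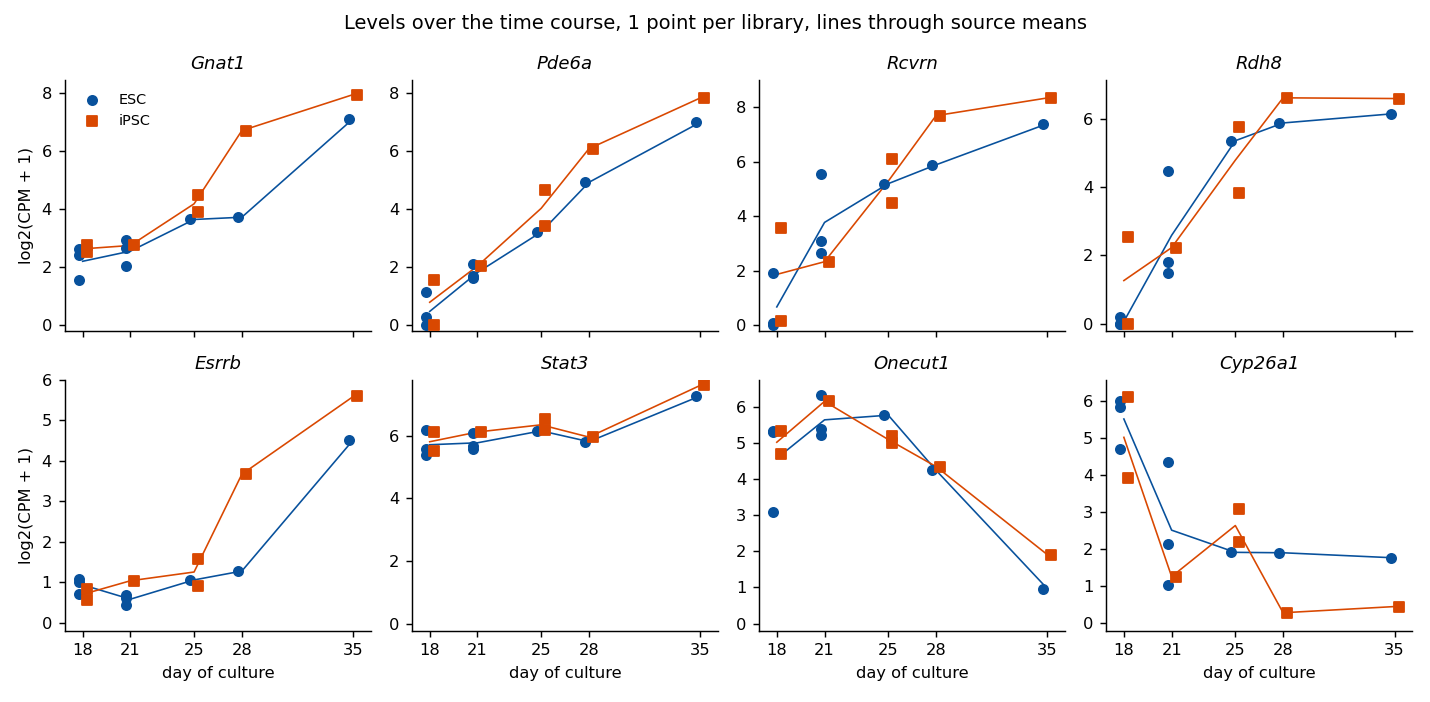
Levels of 8 genes as log2(CPM + 1) against the day of culture, 1 point per library, circles and dark blue for ESC, squares and orange for iPSC, with lines through the mean of each source. Rdh8 is near its day 35 level by day 28, Stat3 differs little among days 18 to 28 and is higher at day 35, Onecut1 is lower at day 35 than at any earlier day in both sources, and Cyp26a1 is lower at day 35 than in any day 18 library.

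Each source was also compared within itself, with 1 day 35 library per source and the spread pooled over all groups. Within ESC 115 genes (0.756%) passed, 112 higher and 3 lower, and within iPSC 76 (0.5%), 38 in each direction. Without the day 18 library of the low-Nrl pair, 61 passed within ESC and 0 within iPSC (smallest adjusted p = 0.0793, 1459 genes at an unadjusted p under 0.05). Within ESC 405 passed without replicate 2 and 68 without replicate 3, and within iPSC 51 passed without replicate 2. Both sources shared 9 called genes, 7.83% of those of ESC and 11.8% of those of iPSC. They were Gnat1, Pde6a, Esrrb, Wdr17, Ckmt1, Ahr, Slc26a2 and Sh3gl2, which rose, and Igf2bp1, which fell. Pde6a changed by 6.53 in ESC and 7.04 in iPSC, and Gnat1 by 4.93 and 5.33. The medians of the progenitor and mitosis lists were -1.22 and -1.70 in ESC and -3.34 and -3.70 in iPSC.

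The change differed between the sources for 15 genes (0.0987%), in each case larger in ESC, and 1710 genes had an unadjusted p under 0.05. The test sets 1 day 35 library of each source against the other, so source and library cannot be told apart. Anxa1, a calcium-dependent membrane-binding protein, was at most 0.46 CPM in the 5 day 18 libraries and stood at 149 and 0.35 CPM in ESC and iPSC day 35 (difference of the log2 changes, iPSC minus ESC, -6.75, SE 0.53, adjusted p = 0.0039). Krt7, an epithelial keratin, stood at 120.5 and 0.77 CPM (-6.37), Dsp, a protein of desmosomes, at 90.7 and 0.13 CPM (-6.09), and Gsto1, a glutathione transferase, at 339 and 5.04 CPM (-5.77). Each was high in ESC day 35 and in no other of the 7 libraries. Aqp4, a water channel of Müller glia, and Rlbp1, their retinaldehyde carrier, stood at 222 and 5.67 CPM and at 124 and 4.75 CPM (-5.20 and -4.61). Grm6, the glutamate receptor of ON bipolar cells, stood at 78.8 and 1.23 CPM (-4.88). The marker lists hold these genes themselves, Aqp4 and Rlbp1 for Müller glia and Grm6 for bipolar cells, so their sums are no separate support. The summed Müller glia levels were 2159.8 and 288 CPM in ESC and iPSC day 35, against 586 to 1106 CPM at day 18. For bipolar cells the sums were 669.9 and 123 CPM, against 162 to 279 CPM. Among the genes of these lists, 2 of 12 Müller glia and 3 of 10 bipolar markers tested rose in the comparison of days. Over all genes tested, 4.54% rose. The median change of the Müller glia list was 2.62 in ESC and -0.71 in iPSC, and that of the bipolar list 2.01 and -0.32. The part of these markers in the result was not tested. Without the low-Nrl pair 0 genes passed for the source difference (limma, 1017 at an unadjusted p under 0.05), and none without ESC replicate 1 and iPSC replicate 2, the libraries whose Y-linked gene went against their source (2498 at an unadjusted p under 0.05). With a pseudocount of 0.1 instead of 1, 1 gene passed.

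**Figure D5:**
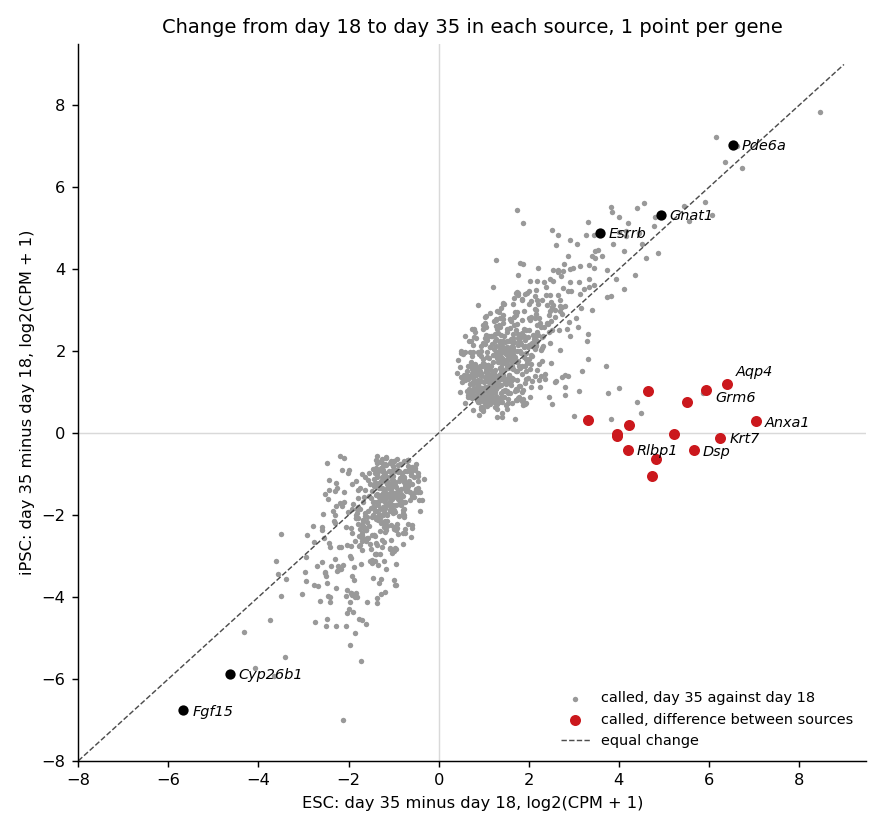
Change from day 18 to day 35 as log2(CPM + 1) in ESC (x axis) and iPSC (y axis), grey points for the 1144 called genes, red points for the 15 genes whose change differed between sources, with 5 genes named in black. Pde6a and Gnat1 lie near the dashed line of equal change, Esrrb, Fgf15 and Cyp26b1 moved the same way in both sources, and the red points lie to the right of the line at iPSC changes from -1.04 to 1.21.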

How the data were processed

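GFP-positive sorted cells were profiled by RNA-seq. Per the series design text, the authors trimmed reads with Trimmomatic 0.36, quantified Ensembl release 84 transcripts with kallisto 0.42.5, summed to genes with tximport (length-scaled TPM) and converted to CPM with edgeR. The deposited gene values equal the square of log2(CPM + 1), minus 1, a step not given in the sources used here, and were turned back into CPM. The check used the TPM per transcript that the authors deposited as kallisto estimated them. After a scaling factor per library was removed, the ratio of CPM to summed TPM was constant across libraries for 97.7% of 8688 genes, within 0.0001 (log2). The deposited estimated counts per transcript, from kallisto per the design text, stop at 65535 transcripts. Their gene sums, rounded, gave library totals and served edgeR 4.0.16 and DESeq2 1.42.0, for genes with complete transcripts.

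Genes that reached a CPM of 1 in 2 or more libraries were tested on log2(CPM + 1), which understates changes of low genes, with limma 3.58.1 (R 4.3.3, trend, two-sided, adjusted p under 0.05) over 16 libraries, with source and day as factors. Comparisons within a source and between sources used 1 mean per group. The scripts were tested on simulated data. Samples were grouped by the labels' source and day.

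The members and gene lists were chosen with earlier results of these data known. Named were 4 given markers, the 20 largest changes each way at a mean of at least 5 CPM, the 6 called genes of highest CPM each way, up to 4 called genes of each list, and the 4 largest source differences, with examples that did not pass. Predicted gene models were left out, and a few genes that the rule gives are not reported here. Alternatives were TMM factors, other filters, a pseudocount of 0.1, a replicate block, the 7 libraries alone, array weights, edgeR, DESeq2 and leaving out libraries.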

Additional observations from a re-analysis of the deposited data

Results flagged for a closer look

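For 15 genes the change from day 18 to day 35 differed between the sources (limma, interaction contrast, adjusted p under 0.05), each with the larger rise in ESC. The differences, as the iPSC change minus the ESC change on the log2(CPM + 1) scale, were -6.75 for Anxa1, -6.37 for Krt7, -6.09 for Dsp and -5.77 for Gsto1. Of further epithelial genes, the desmosomal cadherin Dsc2 differed by -5.46, the epidermal protease Asprv1 by -5.24, the glycerol channel Aqp3 by -4.02, the gap junction gene Gjb2 by -4.00 and the interleukin antagonist Il1rn by -3.0. The genes Aqp4 and Rlbp1, known from Müller glia, differed by -5.20 and -4.61, and Grm6 and the GABA receptor gene Gabrr1, known from bipolar cells, by -4.88 and -3.62. The receptor Gpr17, known from oligodendrocyte precursors, differed by -4.75 and the pseudogene Tma7-ps by -4.01, and reads of a pseudogene can be shared with its parent gene. Each source had 1 library at day 35, and leaving out the low-Nrl pair left no gene called (1017 at an unadjusted p under 0.05). The summed Müller glia markers were 2159.8 CPM in ESC and 288 CPM in iPSC at day 35, bipolar markers 669.9 and 123 CPM, and pigment epithelium markers 2315 and 113 CPM. These sums include Aqp4, Rlbp1 and Grm6, with Rlbp1 on both the Müller glia and the pigment epithelium list. The part of these markers in the differences was not tested.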

How the results depend on the processing

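The count of 1144 genes was 1245 with TMM factors, 1126 at a CPM of at least 5 and 1105 with a pseudocount of 0.1. On genes with complete transcripts, DESeq2 called 1573 of 9069 with an adjusted p, among them 669 of the 682 of the 1144 genes that it could test, and edgeR 643 of 9316, among them 520 of 698. The count was 735 with no filter, 292 with array weights and 17 from the 7 libraries alone, where the spread rests on those libraries. Of the calls, 60.3% were rises, against 49.3% with DESeq2, 74.7% with array weights and 82.4% from the 7 libraries. Without the low-Nrl pair 147 genes passed (72.8% rises), and 632 passed when the libraries left out were replicate 1 of ESC and replicate 2 of iPSC at day 18 (76.1% rises). Leaving out 1 library gave 295 (without iPSC day 35) to 1808 (without ESC day 18 replicate 2). A replicate block gave 2943 calls (51.4% rises), and with it 29 of 30 mitosis and 15 of 22 progenitor genes fell. No label says that a number marks a shared culture or batch, and the main fit has no block. Between the sources at day 18, the deviations of same-numbered libraries correlated at 0.6 and 0.22. With 2 iPSC libraries at day 18, whose deviations mirror each other, these are not independent values. Between ESC days 18 and 21 the correlations were 0.31, 0.06 and 0.25. All are positive, and they do not settle whether the numbers pair the libraries.

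The source difference fell from 15 genes to 1 with a pseudocount of 0.1 and to 0 without the low-Nrl pair. Leave-outs added after seeing the data gave 4 to 33 genes, and 0 without ESC replicate 1 and iPSC replicate 2. Within ESC leave-outs gave 61 to 405 genes against 115, and within iPSC 0 to 51 against 76. Where the cause is not stated, the cause was not tested. With 1 day 35 library left out, changes of 6 named genes of the source difference ran from -0.69 to 4.87 for Dsc2, -0.53 to 5.74 for Dsp, -0.29 to 4.14 for Gjb2, -1.0 to 4.70 for Gsto1, -0.06 to 6.20 for Krt7 and -0.17 to 4.04 for Rlbp1, negative without ESC day 35. No other of the 179 genes followed through these fits changed sign. This count does not cover every gene named as not passing. Aldh1a1, which did not pass, changed by 0.17 in ESC and -4.86 in iPSC. The median 95% interval of a gene's change reached 0.71 to either side on the log2 scale, and the smallest change called was 0.61.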
